A study of Mus musculus with 6 samples.

Results

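The genes of the enzymes that hydroxylate, process and crosslink collagen, and of a collagen chaperone, were examined in primary mouse lung fibroblasts (LFs). They are the lysyl oxidases Lox, Loxl1, Loxl2 and Loxl3, the lysyl hydroxylases Plod1 and Plod2, the prolyl 4-hydroxylase subunits P4ha1 and P4ha2, the chaperone gene Serpinh1 and the procollagen protease gene Bmp1. These 10 genes were picked by name among the 55364 listed. All 10 were among the 10346 genes with enough counts to be tested.

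LFs had been isolated from the lungs of 8-10-week-old mice described as C57Bl6/J, either wt or carrying 1 disrupted allele of Sh3pxd2a, the gene of the podosome scaffold Tks5. There were 3 libraries per genotype, all from cells exposed to 10 ng/ml TGFβ1 for 24 h in medium without serum, so that the comparison is between genotypes under TGFβ and holds no untreated cells. In the labels the other genotype is TKS5 knockout, whereas the study describes heterozygotes, Tks5+/-, and obtained no homozygotes. The disrupted allele came from a line with a loxP-flanked exon removed by Cre under the CMV promoter in all tissues, so that every cell type carried it, and which of its derived alleles (tm1b or tm1d) these libraries held is not given. Neither the number of mice behind the libraries nor their pairing is given by the labels, so that p-values measure the spread between these libraries, which may in part be technical.

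Reads were made with Quant-Seq, which reads transcripts from their poly(A) end, and were counted on the UTR at the end of each gene. Total counts ran from 1344507 to 2369882 per library. Counts were expressed as CPM, the counts of a gene relative to the TMM-scaled size of its library, which can be compared between libraries for a gene but not between genes. Calls needed an adjusted p under 0.05 in edgeR's quasi-likelihood test and a fold change of at least 1.2, with Benjamini-Hochberg adjustment over all genes tested. Unless alternatives or a permutation test are named, every adjusted p below comes from that test. Every log2 fold change is that of the libraries labelled Tks5+/- against wt.

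Sh3pxd2a had 132, 102 and 105 CPM in wt replicates 1, 2 and 3 and 131, 151 and 133 CPM in the libraries labelled Tks5+/- (log2 fold change 0.29, standard error 0.20, adjusted p = 0.249). The counts are of the UTR and not of the deleted exon, and whether the disrupted allele alters reads on the UTR was not tested. They do not show a lower level in the libraries labelled Tks5+/-, and the directions below rest on the labels. By Q-RT-PCR, another measure, the study reports less Tks5 mRNA in Tks5+/- LFs and lungs. Whether the RNA of these libraries was among that measured is not given here. Among the 10 fibroblast markers 4 were called higher and 2 lower, and their summed level was 5147 to 6511 CPM in wt LFs and 5989 to 9207 CPM in the libraries labelled Tks5+/-. Macrophage markers summed to 349, 318 and 1842 CPM in wt replicates 1, 2 and 3 and to 118 to 137 CPM in the libraries labelled Tks5+/-, where Adgre1 and Ptprc had no count. Of these 10 markers, 9 were tested and 5 were called lower. Endothelial markers summed to 112 to 141 CPM in wt and 45.6 to 59.9 CPM in the libraries labelled Tks5+/-, with 4 of the 5 tested called lower and Pecam1 and Tek at no count in the latter. Epithelial markers summed to 14.4 to 34.9 CPM in wt and at most 0.512 CPM in the others, with Sftpc, Sftpb and Scgb1a1 at no count in any library, and mesothelial markers to 20.9 to 25.1 and 3.58 to 12.1 CPM. Y-linked genes summed to 101 to 107 CPM in wt and 21.5 to 32.9 CPM in the others, while Xist had no count in any library. Of these 4 Y-linked genes 2 were tested and 1, Ddx3y, was called lower (mean 85.6 CPM in wt and 11.9 CPM in the others). Eif2s3y, Uty and Kdm5d overlapped between genotypes. Nnt, the nuclear gene of a mitochondrial enzyme, is known to differ between C57BL/6 substrains. It had 30.3, 47.6 and 39.7 CPM in wt against 19.8, 10.5 and 9.72 CPM (log2 fold change -1.56, adjusted p = 2.38e-04), and nearly the same counts are listed under another, overlapping identifier. Smooth muscle markers summed to 4969 to 5900 CPM in wt and 6452 to 7366 CPM in the libraries labelled Tks5+/-, with 3 of 7 called higher and 2 lower. In bulk RNA, fewer cells of a type and less RNA per cell cannot be told apart.

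Collagen chains are modified in the endoplasmic reticulum before they fold. Prolyl 4-hydroxylases hydroxylate proline residues, which stabilizes the triple helix at body temperature, and lysyl hydroxylases hydroxylate lysines, which later carry sugars and take part in crosslinks. Both kinds of enzyme need iron, 2-oxoglutarate and ascorbate. The folded procollagen leaves the cell with the help of the chaperone Hsp47, loses its propeptides to proteases such as BMP1, and is crosslinked outside the cell by the copper-dependent lysyl oxidases, which also crosslink elastin.

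Of the 10 genes, 3 were called lower (Lox, Loxl1 and Bmp1) and 2 higher (P4ha1 and P4ha2) in the libraries labelled Tks5+/-. The share of all genes tested that was called was 44.9%, with 22.1% lower and 22.8% higher, so that 5 of 10 lay close to the background. CPM did not overlap between genotypes for the same 5 genes, 3 below wt and 2 above, beside 53.8% of all genes tested, 27.6% below and 26.1% above. The median log2 fold change of the 10 genes was 0.026, beside -0.046 over all genes tested.

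**Figure D1:**
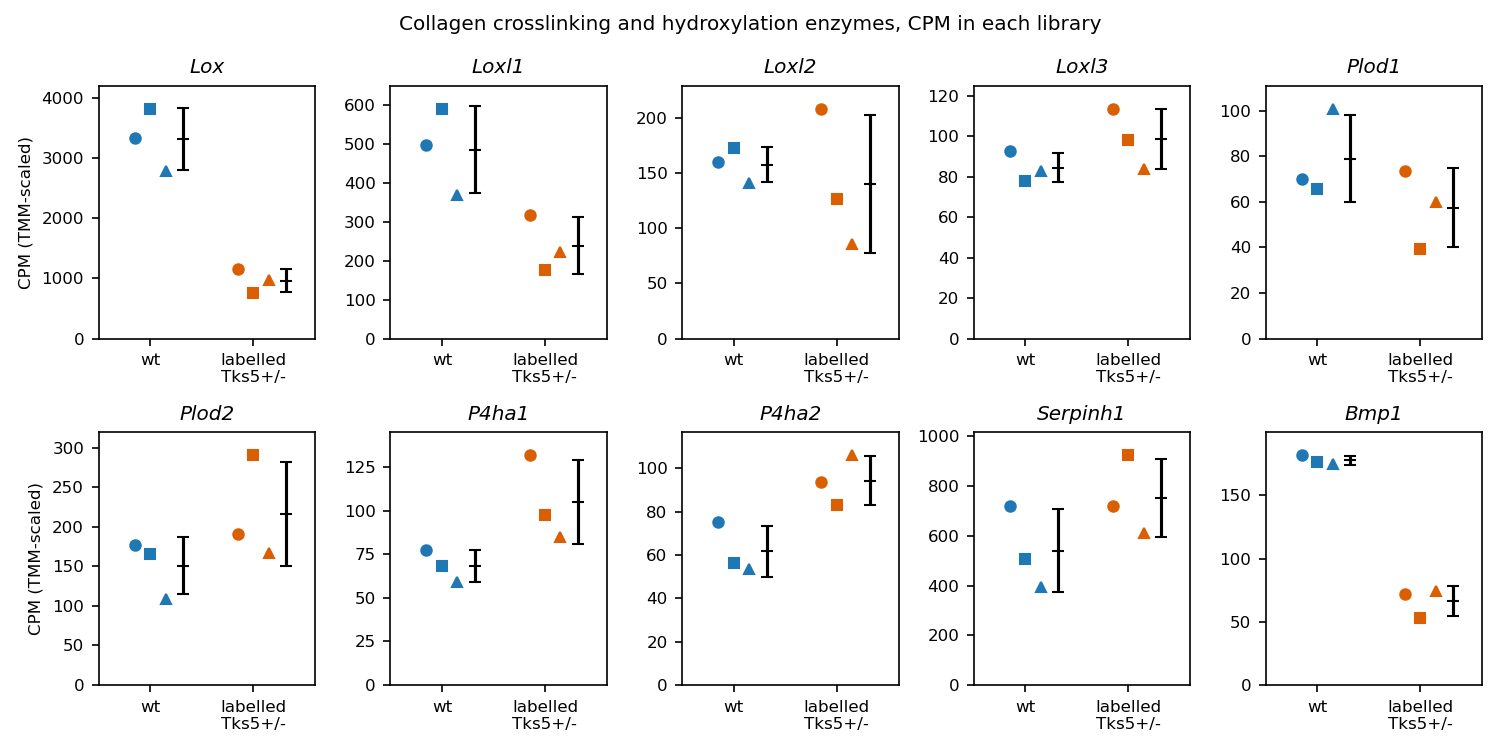
CPM (vertical axes, from 0, a scale per gene) of each of the 10 genes in the 3 wt libraries (blue) and the 3 libraries labelled Tks5+/- (orange), with circles, squares and triangles for replicates 1, 2 and 3 and the mean ± SD in black. Lox, Loxl1 and Bmp1 are lower and P4ha1 and P4ha2 higher in every library labelled Tks5+/- than in any wt library, while the other genes overlap.

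Lox codes for lysyl oxidase, which oxidizes lysines of collagen and elastin as the first step of crosslinking. The gene (ENSMUSG00000024529) lies on chromosome 18 of GRCm38 (reverse strand, 52516067 to 52529867). Reads on Lox numbered 5185, 7134 and 7523 in the wt libraries, but 2092, 1303 and 1914 in those labelled Tks5+/-. On the CPM scale these were 3337, 3817 and 2789 in wt against 1148, 762 and 979, and each of the latter held less Lox than any wt library. The level fell from 3315 ± 514 CPM (SD, n = 3) to 963 ± 193 CPM (SD, n = 3). The log2 fold change was -1.78 with a standard error of 0.22 (adjusted p = 1.54e-06). Only 4.23% of the genes tested had a lower log2 fold change.

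Loxl1 codes for the lysyl oxidase known for its part in elastic fibre renewal (ENSMUSG00000032334, chromosome 9, 58287738 to 58313186, reverse strand). It had 498, 590 and 368 CPM in the wt libraries and 318, 175 and 222 CPM in those labelled Tks5+/-. The highest value of the latter, in replicate 1, lay below the lowest wt value, in replicate 3. The level fell from 485 ± 111 CPM (SD, n = 3) to 238 ± 73.0 CPM (SD, n = 3), or by 1.02 on the log2 scale (standard error 0.24, adjusted p = 0.00130).

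Loxl2 and Loxl3 code for lysyl oxidases with scavenger receptor domains, Loxl2 being known to act on collagen IV of basement membranes. Loxl2 had 160, 173 and 141 CPM in the wt libraries and 209, 127 and 86.0 CPM in those labelled Tks5+/-, the latter reaching both above and below wt. Its log2 fold change was -0.17 (95% interval -0.69 to 0.35, adjusted p = 0.612) and was above 0 without Tks5+/- replicate 3 (0.12) and with correction for transcript length (0.19). Loxl3 had 92.7, 78.1 and 83.1 CPM in wt and 114, 98.3 and 83.9 CPM in those labelled Tks5+/-, of which replicate 3 lay within the wt range. Its log2 fold change was 0.22 (95% interval -0.21 to 0.65, adjusted p = 0.401), and -0.19 when libraries were scaled by their totals, and it was called only with correction for length and GC content (0.52, adjusted p = 0.0449). The UTR of Loxl3 overlaps Htra2 on the opposite strand, and whether the counting kept to 1 strand is not given in the sources used here, so that its counts are uncertain.

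Since the 4 genes were read in the same libraries, their counts can also be given as a composition, a measure chosen after the values were seen. Lox held most of these reads, so that its share largely restates its own counts and is not a separate result. Of the reads on the 4 lysyl oxidase genes, Lox took 81.6%, 82.0% and 82.5% in the wt libraries. The share was 64.2%, 65.6% and 71.4% in the libraries labelled Tks5+/-, with Wilson 95% intervals of 62.5% to 65.8%, 63.5% to 67.6% and 69.7% to 73.1%, all below the lowest wt interval of 80.7% to 82.6%. These intervals cover counting error alone, whereas replicates differed by more than sampling noise, so that they do not test the genotypes.

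Bmp1 codes for the protease that removes the C-terminal propeptide of procollagen and also cuts the propeptide of lysyl oxidase (ENSMUSG00000022098, chromosome 14, 70474558 to 70520234, reverse strand). It had 182, 177 and 175 CPM in the wt libraries and 71.9, 52.7 and 74.2 CPM in those labelled Tks5+/-. The wt libraries lay close together, and every one of the others held less than any of them. The level fell from 178 ± 3.54 CPM (SD, n = 3) to 66.3 ± 11.8 CPM (SD, n = 3), with -1.42 for the log2 fold change (standard error 0.21, adjusted p = 1.17e-05), and 8.06% of the genes tested had a lower log2 fold change.

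Lox, Loxl1 and Bmp1 were called lower under all alternatives run, with log2 fold changes of -2.44 to -1.48 for Lox, -1.44 to -0.66 for Loxl1 and -1.83 to -0.81 for Bmp1. The smallest fall of Lox came with correction for transcript length and those of Loxl1 and Bmp1 with correction for length and GC content together. Without wt replicate 3, the library with high macrophage markers, Lox was at -1.90, Loxl1 at -1.19 and Bmp1 at -1.44. In the wt libraries that remain, macrophage markers still summed to 349 and 318 CPM, against 118 to 137 CPM. The part of the macrophage, endothelial and other marker differences in these falls was not tested.

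P4ha1 and P4ha2 code for the alternative catalytic subunits of collagen prolyl 4-hydroxylase. Both are known targets of the hypoxia-inducible factors, which bind the letters ACGTG or GCGTG. Which of the other genes are targets too, including Lox, Loxl1 and Bmp1, which fell, is not given here. Activity of these factors was not tested. Promoters of P4ha1, P4ha2, Plod1 and Serpinh1, 4 of the 10 genes, were matched in RefSeq tables of GRCm38.p6, as 250 bases before and 50 after a RefSeq start site. Both motifs were searched on both strands, and either stood in 43.8% of 32851 promoters of that length (ACGTG in 19.6% and GCGTG in 32.4%). The stretches of P4ha1 and P4ha2 with ACGTG are shown because these genes rose together, with the motif in capitals, or its reverse complement CACGT where it lies on the other strand.
P4ha1, chr10:59323268-59323297, 16 bases before the start: tgtgacagagcgCACGTagcgagggctgcg
P4ha2, chr11:54100834-54100863, 78 bases before the start: tgtgcatcgcatACGTGcagcgcgtggcgg
P4ha2, chr11:54100922-54100951, 10 bases after the start: cgggaggtggggACGTGgcggaggctcaag
All 3 are on the forward strand of the genome. Both stretches of P4ha2 lie inside the gene as listed by Ensembl, which begins at 54100095. The RefSeq start site used for P4ha2 is thus downstream of the first base of the gene. P4ha1 and P4ha2 each also held GCGTG 2 times, once of these in the stretch of P4ha2 before its start. Serpinh1 held CACGT once, 171 bases before its start, and Plod1 held GCGTG 2 times. These matches describe the sequence and were not tested for binding.

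P4ha1 (ENSMUSG00000019916, chromosome 10, 59323296 to 59373304, forward strand) had 77.2, 68.5 and 59.0 CPM in the wt libraries and 132, 97.7 and 84.9 CPM in those labelled Tks5+/-. The lowest of the latter lay above the highest wt value. The level rose from 68.2 ± 9.14 CPM (SD, n = 3) to 105 ± 24.2 CPM (SD, n = 3), by 0.62 on the log2 scale (standard error 0.22, adjusted p = 0.0249). P4ha2 (ENSMUSG00000018906, chromosome 11, 54100095 to 54131665, forward strand) had 75.3, 56.2 and 53.8 CPM in the wt libraries and 93.8, 83.1 and 106 CPM in those labelled Tks5+/-, again without overlap. It rose from 61.8 ± 11.8 CPM (SD, n = 3) to 94.3 ± 11.4 CPM (SD, n = 3), likewise by 0.62 (standard error 0.22, adjusted p = 0.0236).

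These rises were less firm than the falls. Leaving out wt replicate 2, wt replicate 3 or Tks5+/- replicate 1 ended the call of P4ha1, with adjusted p values of 0.0761, 0.0968 and 0.0878. That of P4ha2 ended without wt replicate 2, wt replicate 3 or Tks5+/- replicate 3, at 0.109, 0.0947 and 0.0682. Scaled by library totals, which put the median over all genes tested at -0.47, P4ha1 was at 0.21 and P4ha2 at 0.20 and neither was called. Correction for GC content left P4ha1 at 0.49 (adjusted p = 0.0746), and it was not called on the authors' normalized counts either (0.51, adjusted p = 0.0781). Both genes kept a positive log2 fold change under all alternatives run, with adjusted p values of 0.00426 to 0.456 for P4ha1 and 0.0136 to 0.468 for P4ha2.

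Plod2, the lysyl hydroxylase of the collagen telopeptides, had 177, 166 and 109 CPM in the wt libraries and 190, 290 and 167 CPM in those labelled Tks5+/-. Replicate 2 of the latter stood highest, and the groups overlapped. The difference was 0.52 on the log2 scale (standard error 0.24, adjusted p = 0.0766), called only with correction for transcript length (0.67, adjusted p = 0.0288) and without Tks5+/- replicate 3 (0.72, adjusted p = 0.0346). Plod1, which hydroxylates lysines of the collagen helix, had 70.2, 65.8 and 101 CPM in the wt libraries and 73.5, 39.2 and 59.9 CPM in those labelled Tks5+/-. Its log2 fold change was -0.46 (95% interval -0.97 to 0.045, adjusted p = 0.129), called only with library totals as the scaling (-0.87, adjusted p = 0.00843).

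Serpinh1, the gene of the procollagen chaperone Hsp47, had 721, 505 and 393 CPM in the wt libraries and 719, 923 and 612 CPM in those labelled Tks5+/-. The wt library of replicate 1 was as high as replicate 1 of the others. The log2 fold change was 0.48 (95% interval -0.0027 to 0.96, adjusted p = 0.0985), and the gene was called without wt replicate 1 (0.74, adjusted p = 0.0221) and with correction for GC content (0.71, adjusted p = 0.0191).

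**Figure D2:**
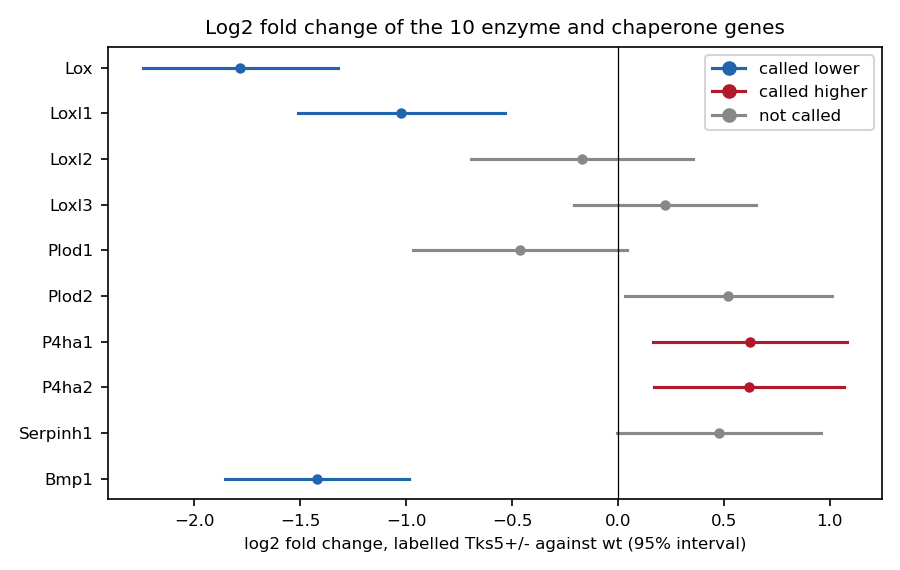
Log2 fold change (horizontal axis) of each of the 10 genes in the libraries labelled Tks5+/- against wt, as points with 95% intervals, in blue where called lower, red where called higher and grey where not called. Lox (-1.78), Bmp1 (-1.42) and Loxl1 (-1.02) stand to the left, and P4ha1 and P4ha2 (both 0.62) to the right of 0.

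**Figure D3:**
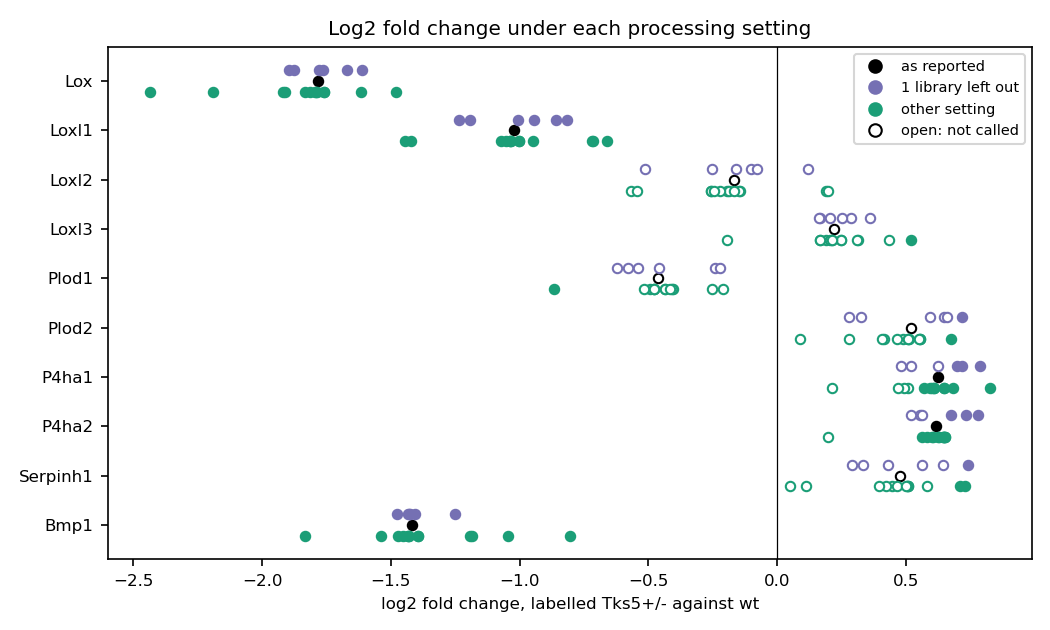
Log2 fold change (horizontal axis) of the 10 genes as reported (black), with 1 library left out (purple) and under other settings (green), with filled points where the gene was called and open points where it was not. Lox, Loxl1 and Bmp1 are filled throughout, while P4ha1 and P4ha2 are open in several settings and Loxl2 and Loxl3 lie on both sides of 0.

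Ratios of counts within a library do not depend on how libraries are scaled, and 5 ratios of related genes were compared. The smallest p that an exact permutation test of 3 libraries against 3 can give is 0.1, and 0.125 after adjustment over the 5. Values did not overlap between genotypes for 4 of the 5 ratios. The share among ratios of other genes was not computed, and 53.8% of all single genes tested did not overlap in CPM. The count is thus not a result about these genes. The 3 ratios to Lox share that gene and are not independent.
Relative to Lox, Loxl3 was 4.01-fold higher, Loxl2 2.89-fold and Loxl1 1.68-fold in the libraries labelled Tks5+/- (exact two-sided permutation test, p = 0.1 for each). On the log2 scale, the ratio of Loxl1 to Lox was -2.75, -2.69 and -2.92 in wt, against -1.85, -2.12 and -2.14, each of the latter above every wt value. The ratio of Plod2 to Plod1 was 1.33, 1.33 and 0.12 in wt, against 1.37, 2.88 and 1.47, a difference of 0.98 (exact two-sided permutation test, p = 0.1) that was 0.50 without Tks5+/- replicate 2 and 0.58 without wt replicate 3. The ratio of P4ha2 to P4ha1 overlapped, with a difference of 0.017 (exact two-sided permutation test, p = 1).

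**Figure D4:**
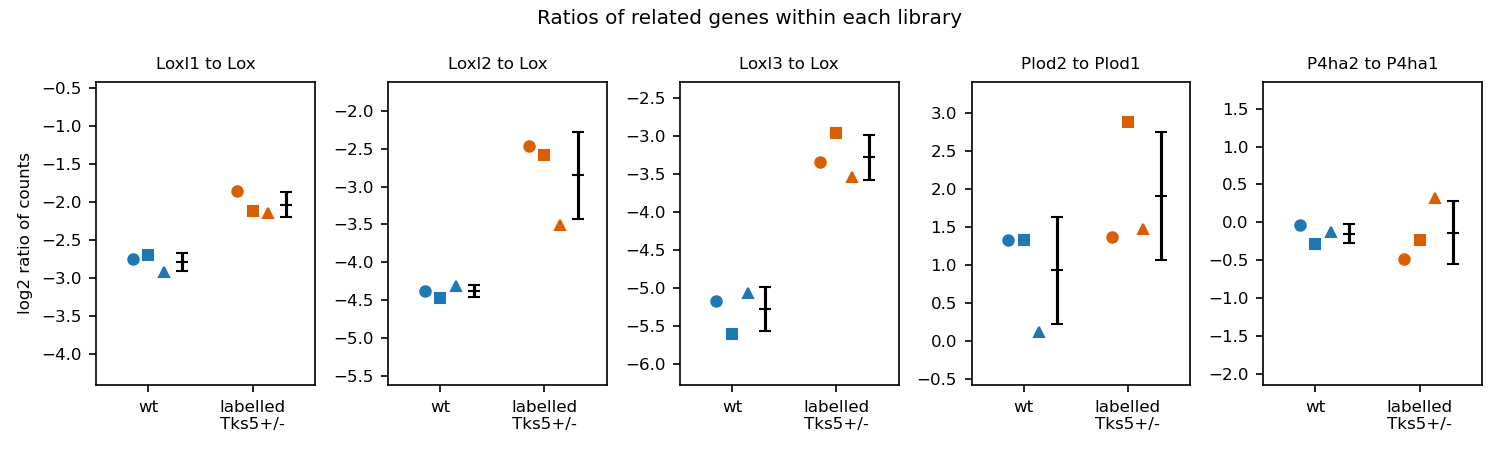
Log2 of the ratio of counts of related genes within each library (vertical axes, each spanning 4 units), with wt in blue and the libraries labelled Tks5+/- in orange, circles, squares and triangles for replicates 1, 2 and 3, and the mean ± SD in black. The ratios of Loxl1, Loxl2 and Loxl3 to Lox are higher in every library labelled Tks5+/-, and that of P4ha2 to P4ha1 overlaps.

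Each of the 10 genes was also set against collagen I, as the ratio of its counts to those of Col1a1 plus Col1a2 in the same library. The smallest p is again 0.1, and 0.25 after adjustment over the 10, which share the same denominator. Col1a1 (0.45, adjusted p = 0.130) and Col1a2 (0.39, adjusted p = 0.203) were not called, though Col1a1 was called higher with corrections for GC content (0.74) or transcript length (0.87). Relative to collagen I, Lox was 4.59-fold lower, Bmp1 3.58-fold, Loxl1 2.73-fold and Loxl2 1.59-fold in the libraries labelled Tks5+/-, without overlap between genotypes (exact two-sided permutation test, p = 0.1 for each). For Lox the log2 ratio was 0.14, 0.15 and 0.35 in wt LFs and -2.21, -2.15 and -1.60 in the others.
The other 6 ratios overlapped, and the share among other genes set against collagen I was not computed. P4ha1 (0.19), P4ha2 (0.21), Plod2 (0.099) and Serpinh1 (0.094) differed from wt by these amounts on the log2 scale relative to collagen I, with p of 0.3 to 0.8 in exact two-sided permutation tests. Loxl3 differed by -0.19 (p = 0.4) and Plod1 by -0.88 (p = 0.2) in the same exact test.

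Other genes of collagen biosynthesis and of related enzymes, including oxygenases of other substrates, were taken from lists of known roles. Of these 99 genes, 76 were tested, 21 called lower and 14 higher, with a median log2 fold change of -0.084. Over all genes tested, 22.1% were called lower and 22.8% higher, with a median of -0.046, and the counts of each list below are to be read beside these shares. Genes named from these lists are the 4 with the smallest adjusted p of each, unless stated otherwise.
Of 22 genes of collagen modification and folding, 19 were tested, with 5 lower and 3 higher (median -0.071). P4ha3, the remaining catalytic subunit of prolyl 4-hydroxylase, went the opposite way to P4ha1 and P4ha2, falling from 68.4 ± 3.43 to 20.4 ± 3.60 CPM (SD, n = 3 each). Its log2 fold change was -1.74 (adjusted p = 4.03e-06), and -2.16 to -1.59 over the alternatives. Pdia3, a disulfide isomerase of the endoplasmic reticulum, fell by 0.97 on the log2 scale (adjusted p = 7.23e-04). Fkbp7, a prolyl isomerase (2.29-fold, adjusted p = 1.12e-04), and Tmem38b, an ion channel of the endoplasmic reticulum needed for collagen modification (log2 fold change 1.46, adjusted p = 6.52e-04), were higher. With correction for length and GC content, Fkbp7 was at 0.44 and not called (adjusted p = 0.0997).
A few partners of the 10 genes were picked with their values already in view. Plod3, which hydroxylates lysines and adds sugars to them, was lower (-0.61, adjusted p = 0.0241), but its call ended when wt replicate 2, wt replicate 3 or Tks5+/- replicate 2 or 3 was dropped (adjusted p = 0.0582 to 0.158) and with correction for GC content (adjusted p = 0.186). Fkbp10, which codes for the isomerase FKBP65 that works with lysyl hydroxylase 2, was lower with any 1 library left out (-0.96, adjusted p = 0.00128), but its UTR overlaps Nt5c3b on the opposite strand. P4hb, the shared beta subunit of prolyl 4-hydroxylase, had 618, 687 and 677 CPM in wt LFs against 734, 731 and 739 CPM, with no overlap, and was not called (0.15, adjusted p = 0.543). Loxl4, the remaining lysyl oxidase, had at most 11 counts in a library and was not tested.

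Of 19 genes of procollagen export, all were tested, with 4 lower and 5 higher (median 0.15). Sec13, of the COPII coat that buds vesicles from the endoplasmic reticulum, rose from 65.0 ± 8.53 CPM (SD, n = 3) to 266 ± 40.4 CPM (SD, n = 3), with 2.03 (standard error 0.21, adjusted p = 1.90e-07). Kdelr2, a receptor that returns chaperones such as Hsp47 to the endoplasmic reticulum, rose by 1.09 on the log2 scale (adjusted p = 7.09e-04). Mia3, whose protein TANGO1 loads procollagen into vesicles, was lower (-0.93, adjusted p = 0.00150), as was Creb3l2, a transcription factor of the secretory pathway (-1.26, adjusted p = 5.71e-05).
Of 10 genes of propeptide processing besides Bmp1, 5 were tested, with 3 lower and 0 higher (median -0.83). Adamts2, which removes the N-terminal propeptide, went from 182 ± 72.7 CPM (SD, n = 3) to 54.7 ± 16.7 CPM (SD, n = 3), with -1.73 (standard error 0.30, adjusted p = 2.20e-04). Furin, which activates BMP1 and other proproteins, was at -1.35 (adjusted p = 3.67e-05). Pcolce, the enhancer of BMP1, was lower too (-0.74, adjusted p = 0.00723), but not called without Tks5+/- replicate 3 (adjusted p = 0.0623), while Pcolce2 at -0.83 was not called (adjusted p = 0.0653).

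Among 9 matrix proteins that bind or position lysyl oxidases or BMP1, 4 were lower and 0 higher (median -0.88). Fn1, fibronectin, went from 1218 ± 80.2 CPM (SD, n = 3) to 417 ± 66.8 CPM (SD, n = 3), with -1.55 (standard error 0.21, adjusted p = 3.56e-06). Fmod, a proteoglycan that guides Lox on collagen, was at -2.36 (standard error 0.46, adjusted p = 8.72e-04), and Fbln5, a binding partner of Loxl1 in elastic fibres, at -1.19 (adjusted p = 5.67e-04). Sparc, a collagen-binding glycoprotein, was at -0.95 (adjusted p = 0.00332), with genotypes that overlapped in CPM.
Of 9 substrates, 8 were tested, with 2 lower and 1 higher (median 0.052). Eln, the elastin gene crosslinked by Lox and Loxl1, was at -2.83 (standard error 0.29, adjusted p = 3.76e-07) and Col5a3 at -3.17 (standard error 0.26, adjusted p = 6.67e-09). Col3a1 was higher (0.64, adjusted p = 0.0451), but its call ended when replicate 1 or 3 of either genotype was dropped (adjusted p up to 0.214), and its genotypes overlapped in CPM.

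Of 12 genes of copper, iron and ascorbate supply, 9 were tested, with 1 lower and 2 higher (median -0.34). Atox1, which hands copper to the pump that serves the secretory pathway, rose from 128 ± 9.09 CPM (SD, n = 3) to 235 ± 54.4 CPM (SD, n = 3), with 0.87 (standard error 0.21, adjusted p = 0.00204), but was at 0.15 and not called with correction for transcript length (adjusted p = 0.598). The ferritin genes moved apart, Fth1 at -1.49 (adjusted p = 4.09e-05; -1.13 without wt replicate 3, its highest library) and Ftl1 at 0.63 (adjusted p = 0.0227). Both have near-identical copies in the genome, and the UTR of Ftl1 holds the miRNA gene Gm22133 on the same strand, so that their counts are uncertain. Ftl1 was at 0.052 and not called with correction for transcript length, nor was it when replicate 2 of wt or of Tks5+/- was dropped (adjusted p = 0.150 and 0.0747). Ccs, the copper chaperone of superoxide dismutase, was at -0.62 and not called (adjusted p = 0.0567).
Of 8 transglutaminases, which crosslink matrix proteins by another reaction, only Tgm2 was tested and it was not called (0.35, adjusted p = 0.194), except with corrections that included GC content (0.72 with length and GC content, adjusted p = 0.00812). Its UTR overlaps Rprd1b on the opposite strand.

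Of 10 other oxygenases that use 2-oxoglutarate and iron as the collagen hydroxylases do, 6 were tested, with 2 lower and 3 higher (median 0.094). Egln3 and Egln1 code for the prolyl hydroxylases that mark hypoxia-inducible factors for decay. Egln3 had 4.51, 4.28 and 7.42 CPM in the wt libraries and 57.6, 34.5 and 53.7 CPM in those labelled Tks5+/-, or 3.11 on the log2 scale (standard error 0.32, adjusted p = 1.50e-07). Egln1 had 67.6, 50.3 and 48.9 CPM in the wt libraries and 210, 265 and 164 CPM in the others, with 1.94 (standard error 0.23, adjusted p = 7.83e-07). Both rose without overlap and were called with any 1 library left out. Hif1an, which hydroxylates an asparagine of those factors, was lower (-0.92, adjusted p = 0.00103), as was Asph (-0.60, adjusted p = 0.0293). With correction for length and GC content Hif1an was at -0.45 and not called (adjusted p = 0.0949), and with correction for length Asph was at -0.11 (adjusted p = 0.710). The call of Asph also ended when replicate 2 or 3 of either genotype was dropped (adjusted p up to 0.104).

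**Figure D5:**
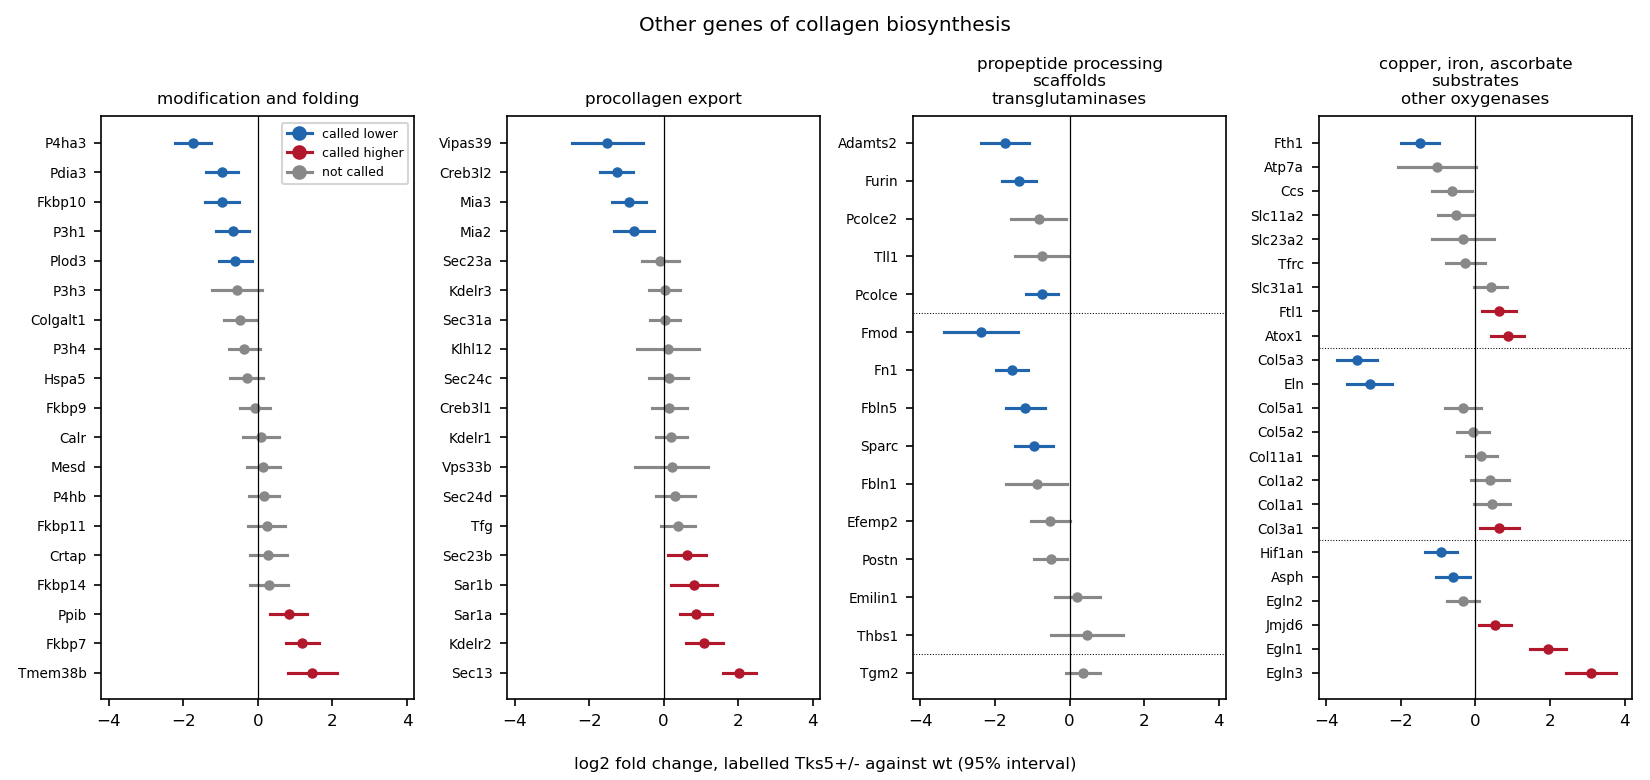
Log2 fold change (horizontal axis, 95% intervals) in the libraries labelled Tks5+/- against wt of the other genes tested, by list, with dotted lines between lists of a panel. The lists hold genes of collagen biosynthesis and related enzymes, including oxygenases of other substrates. Blue genes were called lower, red higher and grey not called. Propeptide processing and scaffold genes have no call to the right of 0, while Egln3 (3.11) lies farthest to the right and Col5a3 (-3.17) farthest to the left.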

How the data were processed

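The deposited raw counts are reads per gene. Before counting, the authors used Trim Galore for trimming and HISAT2, then Bowtie2, for alignment to GRCm38, and metaseqR2 gave the counts over UTR regions. The strand setting is not given in the sources used here. The deposited normalized counts, used as a score in 1 alternative only, were normalized by the authors with EDASeq and rounded, and all 6 libraries hold the same sorted values. Tests on raw counts used edgeR 4.0.16 (R 4.3.3), with its filterByExpr filter, TMM scaling and the robust quasi-likelihood F test. Standard errors come from the fit. Of 55364 gene identifiers, 55104 matched Ensembl 96, which gave symbols, coordinates, transcript length and GC content. Replicates differed by more than sampling noise (chi-square per degree of freedom 3.51 to 9.17).

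Alternatives were DESeq2 1.42.0, limma-voom and limma 3.58.1 on log2(normalized count + 1), RLE, upper-quartile and library-total scaling, no filter, at least 10 counts in every library, no fold change threshold, loess corrections (span 0.5) for GC content and transcript length, a replicate block and each library left out. Ratios used counts + 0.5 and exact permutation tests (scipy 1.17.1). Counts were also simulated for 10346 genes with the depth of these libraries. The test recovered 97.3% of 111 genes changed by 2 on the log2 scale and 58.4% of 89 changed by 1, with 4.76% of calls false. Only these genes were changed, and all genes had the same dispersion, whereas 44.9% of genes tested were called in the data. The share of false calls among the genes reported here is thus not known from the simulation.

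The genes, lists and tests were chosen with earlier results of these data known. Named genes are the 10 genes, Sh3pxd2a, the 4 genes of each list with the smallest adjusted p, and a few said to be picked with their values in view. The study's combined tests and enrichments were not used here.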

Additional observations from a re-analysis of the deposited data

How the results depend on the processing

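The number of genes called was 4642 and ran from 3705 to 5306 over the alternatives. With library totals as the scaling, 1362 of the 5306 genes were higher and 3944 lower, against 2356 and 2286 as reported. Of the 10 collagen enzyme genes, the same 3 were lower under every alternative and Plod1 as well with library totals. The number higher was 2 as reported, 0 with library totals, 1 on the authors' normalized counts and 0 to 3 with each library left out, 0 without wt replicate 2 or wt replicate 3 and 1 without Tks5+/- replicate 1. Of the other pathway genes, 37 were lower and 6 higher with library totals, 8 higher on the authors' normalized counts, and 17 to 25 lower and 10 to 14 higher with each library left out. Genes that were not called and changed direction were Loxl2 (0.19 with length correction, 0.20 with length and GC content, -0.52 to 0.12 with each library left out, the highest without Tks5+/- replicate 3), Loxl3 (-0.19), Sh3pxd2a (-0.13) and Tgm2 (-0.053) with library totals, and Tgm2 (-0.044) and Col1a1 (-0.11) on the authors' normalized counts. Sh3pxd2a was called higher with correction for length (0.99) and for length and GC content (1.14). Ratios that overlapped between genotypes and changed direction were those of P4ha2 to P4ha1 (-0.21 to 0.19 with each library left out), and, relative to collagen I, Plod2 (-0.21 to 0.42), P4ha2 (-0.048 to 0.46) and Serpinh1 (-0.14 to 0.36) with each library left out and Loxl3 on the authors' normalized counts (0.36). The cause of these changes was not tested. Same-numbered libraries did not deviate together (correlations of -0.0010, -0.064 and 0.082, beside -0.10 to 0.097 for the other pairs). This gives no sign that the numbers pair the libraries, but 3 libraries per genotype cannot exclude it. With the replicate number as a block, 4668 genes were called, and 3 of the 10 collagen enzyme genes were lower and 2 higher. Together with the GC correction the block gave 4604 genes. Without a library, a group rests on the other 2 and shares its spread with the other genotype. Depth limits genes with few counts, such as Loxl4, which could not be tested, and Pcolce2, with a standard error of 0.36.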
